A study of Mus musculus with 4 samples.

Results

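The genes described here are the protein-coding mouse genes whose symbol begins with Eif and a digit, the genes of eukaryotic translation initiation factors and their regulators. They were picked by symbol from the GENCODE M21 annotation. On chromosomes 1 to 19 and X this gave 54 genes of 21670. One more, Eif2s3y, lies on chromosome Y, where neither list holds an entry, and was not compared. The name covers 45 genes named as initiation factors, Eif4a3 and Eif6 among them, whose products are described below by other roles. The other 9 are the 4 kinases of the Eif2ak series, the 3 Eif4ebp genes, Eif4enif1 and Eif1ad, which encode regulators or relatives of the factors. The study had 4 samples in 4 groups of 1, all from cultured neural stem cells of WT C57BL/6J embryos at E12.5, kept in EGF (20 ng/ml) and FGF (10 ng/ml). They were a PHF2 immunoprecipitate (antibody D45A2), an H3K9me2 immunoprecipitate (antibody ab1220) and an input for each. The values below come from the authors' 5992 PHF2 peaks and from 36111 H3K9me2 regions. The inputs were not analysed here. Neither list gives reads or expression, so depth is unknown and the cell type could not be checked against markers. With 1 sample a group there is no spread between cultures, and no test between conditions was made.

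Translation begins when initiation factors bring the initiator tRNA and the small ribosomal subunit to the capped end of an mRNA, scan to the start codon and join the large subunit. Stem cells adjust this step to growth factors through the cap-binding complex and to stress through the Eif2 kinases. PHF2 is a demethylase whose PHD finger binds H3K4me3 at active promoters, and H3K9me2 is a mark of silent chromatin that is described as its substrate.

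To show the kind of promoter concerned, the bases upstream of 4 members are printed from RefSeq (GRCm38.p6, the mm10 assembly), 5′ to 3′ on the gene's strand. They are Eif4a2, Eif5 and Eif3a, which had the highest PHF2 scores of their groups, and Eif5b, the most CpG-rich promoter of the genes without a peak. Only bases outside annotated exons are shown. Capitals mark GGGCGG or its reverse complement, the Sp-family GC box, the only motif of the 9 searched that was found in these stretches. The first lies at chr16:23107218-23107443 (+), the second at chr12:111537851-111538015 (+), the third at chr19:60790694-60790943 (-) and the fourth at chr1:37997894-37998009 (+).
Eif4a2: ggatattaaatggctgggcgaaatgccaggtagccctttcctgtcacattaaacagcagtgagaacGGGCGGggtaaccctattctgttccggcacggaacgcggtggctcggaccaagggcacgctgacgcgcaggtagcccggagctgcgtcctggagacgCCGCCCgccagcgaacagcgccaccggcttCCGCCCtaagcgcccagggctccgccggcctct
Eif5: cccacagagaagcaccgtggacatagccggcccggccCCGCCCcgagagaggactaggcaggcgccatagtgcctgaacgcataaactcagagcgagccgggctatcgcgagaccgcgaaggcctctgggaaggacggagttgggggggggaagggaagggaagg
Eif3a: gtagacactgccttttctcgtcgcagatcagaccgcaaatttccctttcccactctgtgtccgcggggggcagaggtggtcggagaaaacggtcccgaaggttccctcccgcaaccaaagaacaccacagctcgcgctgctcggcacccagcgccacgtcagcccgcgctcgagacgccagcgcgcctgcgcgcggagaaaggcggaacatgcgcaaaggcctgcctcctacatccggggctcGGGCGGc
Eif5b: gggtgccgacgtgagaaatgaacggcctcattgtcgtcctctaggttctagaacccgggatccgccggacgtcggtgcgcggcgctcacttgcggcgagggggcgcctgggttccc

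PHF2 was called at most initiation factor genes, and H3K9me2 at 1 of them. A gene counted as marked when a peak overlapped the 1 kb on either side of a start of one of its protein-coding transcripts. By this measure 33 of the 54 genes had a PHF2 peak (61.1%, 95% Wilson interval 47.8% to 73.0%, which covers counting error over genes only), where the share over all 21670 protein-coding genes was 29.1%. The members were also rich in CpG. The CpG observed/expected ratio, the number of CpG dinucleotides over that given by the C and G content, had a median of 0.624 at the 54 genes and 0.428 at all genes, and 18 of the 54 fell in the top decile. When each member was given the PHF2 rate of all genes in its CpG decile, the sum came to 27.8 genes (51.4%), so the 33 observed were 1.19 times the number at genes of like CpG content. The 51.4% lies within the interval of the observed share. The caller's threshold is unknown, so a promoter without a called peak was not shown to lack PHF2.

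The peaks at these genes were of ordinary rank. The score is the authors' own value per peak, of unstated scale, and serves here only to rank peaks of the list. Over the 33 genes it ran from 112.3 to 1058.9 with a median of 244.1, beside a median of 231.7 over all 6306 genes with a peak. Peak length had a median of 1295 bp (951 to 2448 bp), beside 1322 bp over all genes with a peak. Of the 33 genes, 13 scored above the median of the genes with a peak in their own CpG decile. Peaks of the higher-scoring 50% of the list lay at 17 of the 54 genes (31.5%), where 14.8% of all genes had one and the CpG deciles gave 15.5 genes. Peaks of the highest-scoring 10% lay at 3 genes, Eif4a2, Eif4a1 and Eif5, where 2.84% of all genes had one and the deciles gave 3.32 genes.

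**Figure D1:**
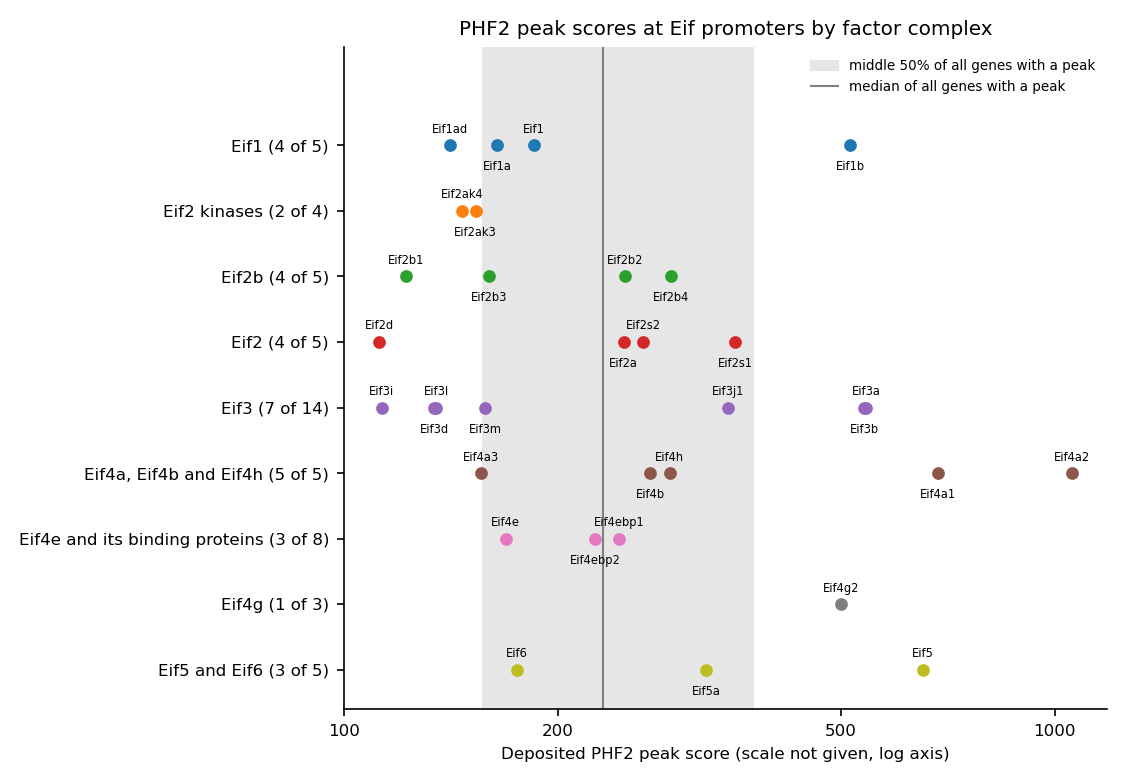
Deposited PHF2 score (log axis, scale not given) of the promoter peak of each of the 33 Eif genes with a peak, 1 point per gene, by factor complex, with the number of genes with a peak of all in that complex. The grey band spans the middle quartiles of all 6306 genes with a peak (157.3 to 376.6) and the line is their median (231.7); Eif4a2 stands farthest right at 1058.9, and all 5 genes of the helicase group carry a peak.

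The helicase group was the only one of the 9 groups in which every gene had a peak. Eif4a1 and Eif4a2 encode the DEAD-box helicase that unwinds the mRNA leader, Eif4a3 its relative in the exon junction complex, and Eif4b and Eif4h cofactors of the helicase. All 5 genes had a PHF2 peak, where their CpG deciles gave 3.66. Eif4a2 had the highest score of all members, 1058.9, on a peak of 2057 bp (chr16:23106864-23108920) that ranked at the 97.2th percentile of the PHF2 list. Eif4a1 followed with 685.0 (chr11:69670907-69672827). Eif4h scored 287.3 and Eif4b 269.7, and the centres of their peaks lay 579 bp and 497 bp downstream of the nearest start, the farthest of all members. Eif4a3 scored 156.2, in the lower part of the list (25.6th percentile). The 3 paralogs of the helicase thus spanned nearly the whole range of scores seen at the family while their CpG ratios were close, 0.929 at Eif4a2, 0.815 at Eif4a1 and 0.824 at Eif4a3.

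In the other parts of the cap complex, the counts were near those given by the CpG deciles. Of 8 genes of the cap-binding proteins and their partners, 3 had a peak, where the deciles gave 3.22. Eif4e, which encodes the main cap-binding protein, had a score of 168.9. Eif4ebp1 (244.1) and Eif4ebp2 (225.8) encode the repressors that hold Eif4e until mTORC1 phosphorylates them. The remaining repressor gene, Eif4ebp3, had none, and its promoter was CpG-poor (0.233). Its nearest PHF2 peak lay 5605 bp away, the shortest such distance among the 21 members without a peak. Eif4e2, a cap-binding repressor, Eif4e3, Eif4enif1, which encodes a partner that carries Eif4e into the nucleus, and Eif4e1b, which is known from oocytes, had no peak. Eif4e1b had the lowest CpG ratio of all members, 0.141, in a decile where 0.0462% of genes had PHF2. Among the 3 scaffold genes, the peak lay at Eif4g2 (500.4, 2360 bp, chr7:111081612-111083971), whose product lacks the binding site for the cap-binding protein. Eif4g1 and Eif4g3, which encode the scaffolds that do bind it, had none. The CpG deciles of the 3 scaffold genes gave 1.25. Within 250 bp on either side of single starts, the CpG ratio reached 0.892 at Eif4g1 and 1.02 at Eif4g3, against 0.837 at Eif4g2. The nearest PHF2 peak lay 15966 bp from the first start of Eif4g1 and 64897 bp from the last start of Eif4g3, itself 158665 bp into the gene.

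Eif2 brings the initiator tRNA to the ribosome. Eif2s1, the gene of the alpha subunit that the stress kinases phosphorylate, scored 355.5 on a peak of 2057 bp (chr12:78860947-78863003). Eif2s2, the beta subunit gene, scored 263.5. Eif2s3x, the gamma subunit gene on X, had no peak, at a CpG ratio of 0.645 in a decile where 60.1% of genes had one. Eif2a and Eif2d, which encode other proteins that can deliver an initiator tRNA, scored 247.7 and 112.3. The value at Eif2d was the lowest of all members (5.64th percentile of the list), on a peak of 951 bp, the shortest of the family. In all, 4 of these 5 genes had a peak, where the deciles gave 3.21.

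Eif2b is the exchange factor that recharges Eif2 with GTP, and mutations of its genes cause a leukodystrophy of glial cells. Of its 5 subunit genes, 4 had a PHF2 peak, where the CpG deciles gave 1.75, the widest gap of any complex. The scores were 288.8 at Eif2b4, 248.7 at Eif2b2, 160.4 at Eif2b3 and 122.2 at Eif2b1. The gene without one was Eif2b5, which encodes the catalytic subunit, with a CpG ratio of 0.342 and its nearest peak 10256 bp from a start. CpG content was pooled here over all starts of a gene, and Eif2b3, Eif2b4 and Eif2b5 have annotated starts outside the CpG-rich stretch, so their pooled ratio lies below that of the main start: at Eif2b3 it was 0.421 pooled and 0.970 within 250 bp of the first start. The first start of Eif2b5, without a peak, had 0.759, and that of Eif2b4, with a peak, had 0.739.

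The 4 kinases of Eif2 answer to separate stresses. Of their genes, 2 had a PHF2 peak, where the CpG deciles gave 1.64. Eif2ak3, the kinase of unfolded protein in the endoplasmic reticulum, scored 153.3, and Eif2ak4, the sensor of amino acid shortage, scored 146.8, both below the first quartile of genes with a peak (157.3). Eif2ak1, the haem-regulated kinase, and Eif2ak2, the kinase activated by double-stranded RNA, had none. Eif2ak2 had a CpG-poor promoter (0.328), while Eif2ak1 had a ratio of 0.777, in the decile where 73.1% of genes had PHF2.

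Eif3 is the largest factor, a scaffold on the small subunit, and its genes were split evenly. Of 14 genes, 7 had a peak, and the deciles gave 6.84. Eif3a (543.3, chr19:60789374-60791505) and Eif3b (539.6, chr5:140417972-140420268), which encode the scaffold subunits of its core, scored within 4 points of each other and stood well above the rest. Eif3j1, the gene of a loosely bound subunit, scored 347.3. The other 4 lay low: Eif3m at 158.0, Eif3l at 135.1, Eif3d, whose product can bind the cap of some mRNAs, at 134.2, and Eif3i at 113.1. No peak was called at Eif3c, Eif3e, Eif3f, Eif3g, Eif3h, Eif3k or Eif3j2. Eif3c encodes a further core scaffold subunit and had a CpG ratio of 0.750, above the 0.725 of Eif3a. Eif3e, Eif3f and Eif3h had ratios from 0.561 to 0.641 and lay 583850 to 1144352 bp from the nearest PHF2 peak. The 7 genes with a peak were thus near the number given by genes of like CpG content.

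Eif1 and Eif1a help the scanning ribosome to recognise the start codon. Of the 5 genes with Eif1 symbols, 4 had a peak, where the CpG deciles gave 3.03. Eif1b, a close relative of Eif1, scored 515.6 (chr9:120492106-120493337), while Eif1 itself scored 185.2. Eif1a scored 164.3 and Eif1ad, which carries a domain like that of Eif1a, 141.1. Eif1ax, the X-linked relative of Eif1a, had no peak and lay 1880069 bp from the nearest one, the longest such distance in the family. Both members on X, Eif1ax and Eif2s3x, were thus without a peak, in CpG deciles where 48.4% and 60.1% of all genes had one. The share over all genes on X was not computed, and Ddx3x, also on X, had a peak. Of the factors of the last steps, Eif5, the activator of GTP hydrolysis on Eif2, scored 652.8 on the longest peak of the family, 2448 bp (chr12:111536887-111539334). Eif5a, whose hypusinated product also acts in elongation, scored 323.5 on a peak of 2400 bp, and Eif6, which keeps the ribosomal subunits apart, scored 175.4. Eif5b, the GTPase of subunit joining, and Eif5a2, the second gene of its kind beside Eif5a, had no peak. In all, 3 of the 5 Eif5 and Eif6 genes had one, where the deciles gave 3.16.

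The plot of peak extents shows a common shape. Every one of the 33 peaks covered a start of its gene, as did 96.0% of the peaks over all genes with a peak. The centre lay downstream of the nearest start at 25 of 33 genes (75.8%), beside 72.3% over all genes, at a median of 144 bp downstream (from -208 bp, upstream, at Eif3b to 579 bp at Eif4h), beside 146 bp. None of the 33 had a second peak in its windows, where 3.63% of all genes with a peak did.

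**Figure D2:**
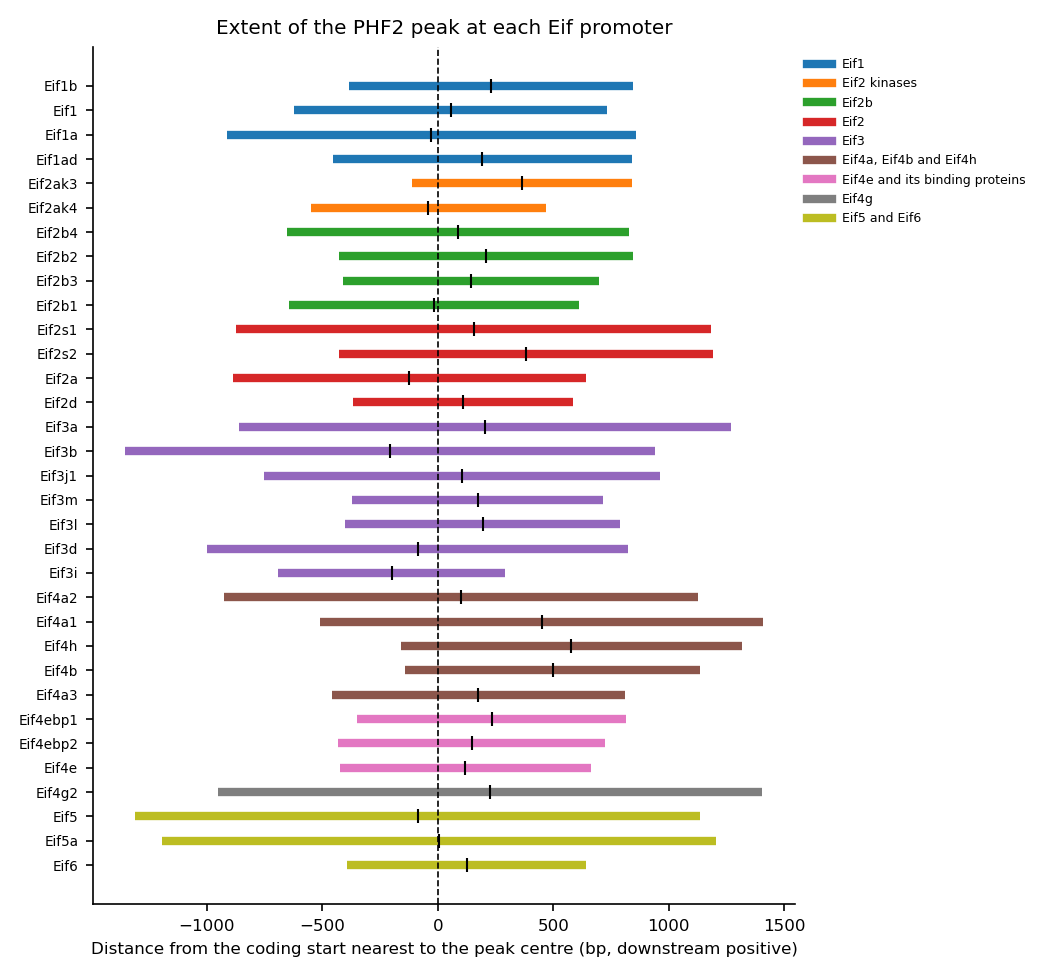
Extent of the PHF2 peak at each of the 33 Eif genes with a peak, as distance in bp from the coding start nearest to the peak centre, with downstream positive, coloured by complex and sorted by score within it; the tick marks the peak centre. All 33 bars cross the start, and 25 centres lie to the right of it.

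Where a gene had several coding starts, the peak mostly lay at the CpG-rich ones. The 33 genes, some of them with a single start, had 103 starts, of which 89 were under the peak. Several of the other 14 belonged to Eif2b4. The share over the starts of all genes was not computed. Within 250 bp on either side, the CpG ratio had a median of 0.887 at those 89 and of 0.295 at the other 14 (0.0366 to 0.720). That contrast holds within the genes with a peak. The 59 starts of the genes without a peak had quartiles of 0.448 and 0.895 and reached 1.02. The upper quartile thus lay above the median of the 89, so a CpG-rich start alone did not set the covered starts apart. The 5′-most start was covered at 32 of 33 genes. The exception was Eif4e, whose first start, at position 138526179 of chromosome 3, lay 694 bp outside its peak (chr3:138526873-138527958). The peak covered the starts at 138527285 and 138527296, where the CpG ratio was 1.07 and 1.01, against 0.542 at the first. Internal starts of Eif2ak4, 23728 bp and 50224 bp into the gene, had ratios of 0.0366 and 0.186 and no peak. Eif5a had 8 of its 9 starts under 1 peak.

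CpG content did not settle the call among the members. Of the 18 genes in the top decile, 14 had a peak (the rate of that decile over all genes was 73.1%). The 4 without one were Eif5b (0.852), Eif2ak1 (0.777), Eif3c (0.750) and Eif5a2 (0.732). In the next 3 deciles down, where the rates over all genes were 41.8% to 60.1%, 15 of 27 had a peak. Below these, where the rates were at most 35.0%, 4 of 9 had one: Eif2b4, Eif2b3, Eif3m and Eif2ak4, each with CpG-rich first starts beside CpG-poor others. That pattern was not particular to them. Eif2b5, also among the 9 but without a peak, had a ratio of 0.759 within 250 bp of its first start. Its other starts had 0.257 and 0.271. The median ratio was 0.685 at the 33 genes with a peak (0.322 to 0.929) and 0.592 at the 21 without (0.141 to 0.852), and the groups overlapped over most of that range.

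**Figure D3:**
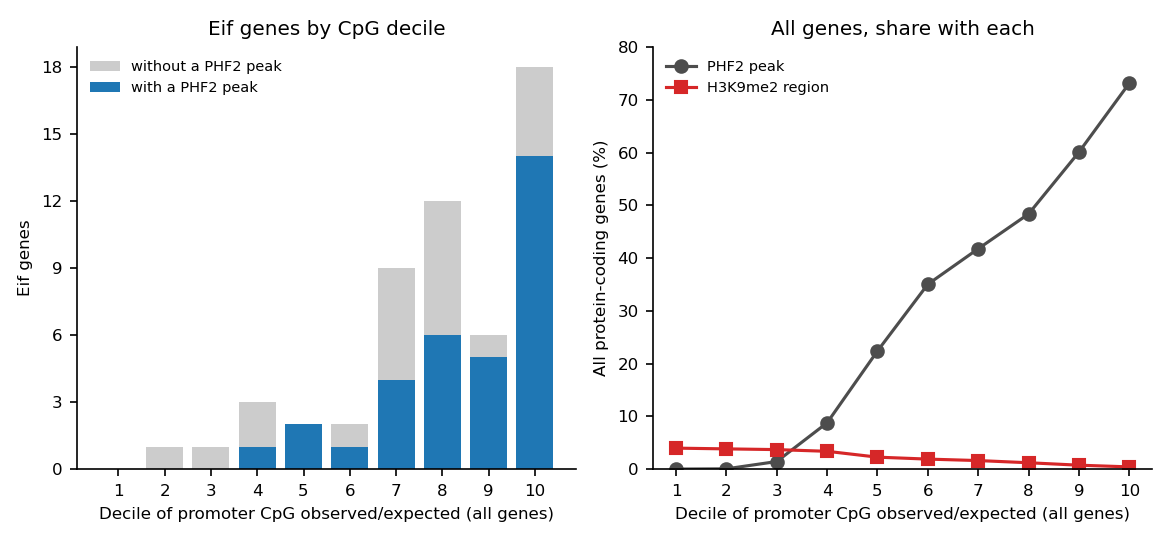
Left, number of Eif genes with (blue) and without (grey) a PHF2 peak in each decile of promoter CpG observed/expected, deciles being those of all 21670 genes; right, share of all protein-coding genes with a PHF2 peak or an H3K9me2 region in each decile, in percent. Eif genes sit mostly in deciles 7 to 10, where the PHF2 share of all genes goes from 41.8% to 73.1% and the H3K9me2 share from 1.61% to 0.415%.

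Several initiation factor genes stand back to back with another gene. A protein-coding gene on the other strand began within 1 kb at 9 of the 54 (16.7%, beside 11.5% of all genes). Of these 9, 7 had a PHF2 peak, where their CpG deciles gave 5.33, and 58.3% of all genes with such a partner had one. Each of the 7 peaks overlapped the promoters of both genes of the pair. They were Eif2b1 with Gtf2h3, 9 bp between the starts, Eif3i with Tmem234 (32 bp), Eif2a with Serp1 (71 bp), Eif2b4 with Snx17 (88 bp), Eif1ad with Banf1 (135 bp), Eif1a with Tmed7 (166 bp) and Eif2s1 with Atp6v1d (181 bp). The pairs of Eif5b with Txndc9 (117 bp) and of Eif3k with Map4k1 (186 bp) had no peak at either gene. Scores at the 7 shared promoters ran from 113.1 to 355.5 with a median of 164.3, and at the 26 others from 112.3 to 1058.9 with a median of 246.4. Over all genes with a peak the medians were closer, 222.2 at shared and 236.3 at unshared promoters. Among the members, the 7 highest scores of the family all lay at unshared promoters, which were the larger group. The next highest, 355.5 at Eif2s1, lay at a shared one. Which gene of a pair a shared peak belongs to cannot be told apart.

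Genes with small nucleolar RNAs annotated inside them held most of those high scores, a feature looked at beyond the planned measures. Such RNAs guide the modification of ribosomal RNA and are cut from the introns of host genes, many of them genes of translation. GENCODE places a snoRNA on the same strand inside 7 of the 54 genes (276 of all 21670), several of them only as unnamed gene models. Whether each lies in an intron was not checked. The hosts were Eif4a2 with 5 such RNAs, Snora81 and Snord2 among them, Eif4a1 with 3, Eif3a with 2 including Snora19, and Eif5 (Snora28), Eif4g1 (Snord66), Eif4g2 and Eif2ak3 with 1 each. All but Eif4g1 had a PHF2 peak, where the CpG deciles of the 7 gave 4.36. The 6 scores had a median of 598.0 (153.3 to 1058.9), beside 185.2 (112.3 to 539.6) at the other 27 genes, and the groups overlapped through Eif2ak3, Eif4g2 and the best of the others, Eif3b and Eif1b. The hosts also had the higher CpG ratios, with medians of 0.820 and 0.665, whose part in the difference was not tested. Over all genes, 162 of 276 hosts had a peak, where their deciles gave 122.9, and the median score of the 162 was 310.2.

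H3K9me2 was listed at the promoters of 1 member. The 1 region within 1 kb of a coding start, among 54 genes (1.85%, 95% Wilson interval 0.328% to 9.77%), lay in Eif3a. The share over all genes was 2.30%, and the CpG deciles of the members gave 0.668 genes. The region had the minimum length of the list, 73 bp (chr19:60782120-60782192). It covered an internal start at position 60782190, 8453 bp downstream of the first start of the gene, where the CpG ratio was 0.223, and it lay 7182 bp from the PHF2 peak at the first start. Eif3a was thus counted with both, as 0.466% of all genes were, but not at the same promoter. With the 5′-most start of each gene alone, no member had a region.

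In the wider surroundings the nearest region lay at a median of 48432 bp from a start of the 54 genes, beside 34230 bp over all genes. It was 51937 bp for the 33 genes with a PHF2 peak (from 0 bp at the internal start of Eif3a to 269810 bp at Eif3i) and 36283 bp for the 21 without (2583 to 353736 bp), and the ranges overlapped. Over all genes the order was the opposite, with medians of 32180 bp with a PHF2 peak and 35120 bp without. No region lay within 10 kb of a start at 45 of 54 genes (83.3%), beside 76.3% of all genes. Regions inside the gene body were listed at 4 genes (7.41%), 1 each in Eif3a, Eif3h and Eif5b and 2 in Eif5a2, beside 24.2% of all genes. The members had fewer very long genes: median length was 18992 bp for them and 17378 bp for all genes, but the upper quartile was 29893 bp and 45440 bp, and the longest gene 215487 bp and 4434882 bp. The part of gene length in the difference was not tested. Eif4enif1 stood apart: 8 regions lay within 10 kb of its starts and 27 within 100 kb, the most of any member, and the nearest lay 2583 bp from a start. These counts also take in the stretch between its first and last starts, which lie 25421 bp apart. The gene begins at position 3202392 of chromosome 11, and the part of that location in the counts was not tested. Its promoter had neither a region nor a PHF2 peak.

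**Figure D4:**
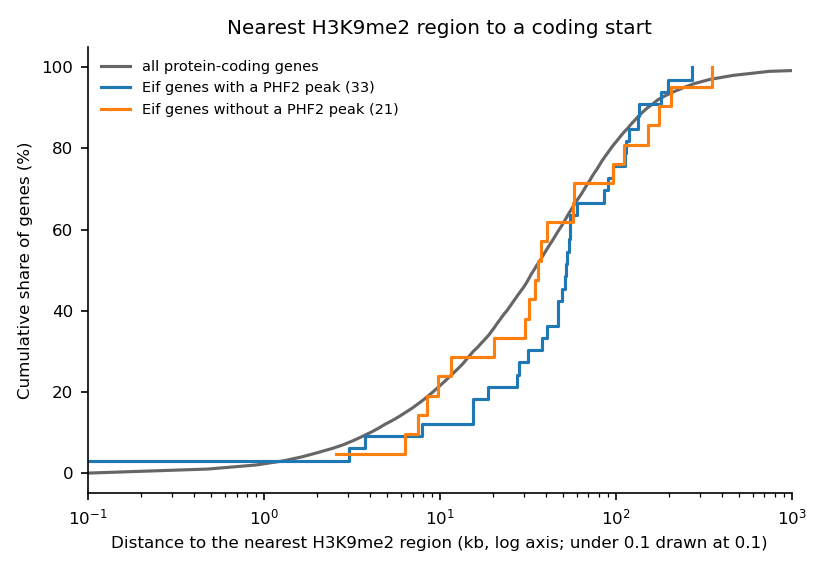
Cumulative share of genes (percent) against the distance in kb (log axis) from a coding start to the nearest H3K9me2 region, for all protein-coding genes (grey), the 33 Eif genes with a PHF2 peak (blue) and the 21 without (orange). The blue curve lies to the right of the grey one around its median of 51937 bp, and the single blue gene at the left edge is Eif3a, through its internal start.

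Motifs were counted in RefSeq promoters, from 250 bp before to 50 bp after a start, on either strand, in 1 promoter for each of 42 members and 16425 protein-coding genes that the table holds. The GC box GGGCGG was the most frequent, in 31 of 42 (73.8%, beside 48.5% of all promoters), and genes of the same CpG deciles gave 29.9. It occurred in 23 of the 27 member promoters with a PHF2 peak and in 8 of the 15 without, beside 70.6% and 38.9% of all promoters with and without one. The ETS core CCGGAAG occurred in 14 (33.3%, beside 12.4%), where the deciles gave 7.54, among them Eif3c, Eif3d, Eif3g, Eif3l and Eif3m, and was found in 8 of the 27 promoters with a PHF2 peak and in 6 of the 15 without. Over all promoters it was found in 20.7% of those with a peak and in 8.81% of those without, so the order of the shares was the opposite of that at the members. The E-box CACGTG, the sequence that Myc with Max binds, occurred in 8 (19.05%, beside 8.13%), where the deciles gave 4.46: Eif1b, Eif3a, Eif3f, Eif3k, Eif4a1, Eif4g1, Eif4h and Eif5a2. CCAAT, the NFY box, occurred in 13 (31.0%, beside 38.8%). The NRF1 palindrome occurred in Eif3k alone (1.39% of all promoters) and TGATGNAA (ATF4) in Eif2s3x alone (3.45%). AAGATGGCG (YY1, 2.03% of all promoters), TGACGTCA (the cyclic AMP response element, 2.43%) and the ZBTB33 palindrome (0.755%) occurred in 0 of the 42. No motif of these contains another. A match describes letters only.

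Genes of neighbouring steps were read from 6 lists. Of their 53 genes, 36 had a PHF2 peak (67.9%), beside 29.1% of all genes, and their CpG deciles gave 25.6. Elongation factor genes had 7 of 8, where the deciles gave 3.18. They were led by Eef1a1 (972.1), the factor that brings tRNAs to the ribosome, with Eef2 (349.2), Eef2k (299.1) and Eef1b2 (212.7). The neuronal and muscle form Eef1a2 had none. Genes of the integrated stress response, which follows phosphorylation of Eif2s1, had 8 of 10, where the deciles gave 4.87. They were led by its transcription factor Atf4 (748.2), with Sesn2 (455.8), the phosphatase subunit gene Ppp1r15b (439.4) and Atf5 (316.2). Helpers of initiation and proteins of the mRNA ends had 12 of 15, where the deciles gave 8.11. They were led by the helicase gene Ddx3x (527.3), Larp1 (484.8), Paip1 (335.0) and Pdcd4 (327.6). Pdcd4, an inhibitor of the Eif4a helicase, was the only one of the 53 with an H3K9me2 region, 83 bp at chr19:53892071-53892153, at its 5′-most start, while its PHF2 peak (chr19:53903243-53904628) lay at a later one. Termination and recycling genes had 4 of 6, near the 3.88 that the deciles gave: Etf1 (578.8), Gspt1 (337.6), Abce1 (193.5) and Hbs1l (137.6). The mTORC1 and MNK genes, which act upstream of the cap complex, had 4 of 12, where the deciles gave 4.97: Mknk2 (545.0), Rptor (403.9), Rheb (372.2) and Mtor (277.4). Of the mitochondrial initiation factor genes, Mtif2 (432.3) had a peak and Mtif3 had none, where the deciles gave 0.641.

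The annotation also holds 10 processed pseudogenes with Eif symbols. Of these, 0 had a PHF2 peak and 0 an H3K9me2 region within 1 kb of the start. The upper limit of either share was 27.75% by the Wilson interval. It was 30.0% by the rule that a count of 0 allows up to 3. Both limits lie above the 2.30% of protein-coding genes with H3K9me2, so the pseudogenes were not set apart from these. The limits lie on either side of the 29.1% with PHF2, so 10 pseudogenes are too few to decide whether their PHF2 share is lower. The shares over all pseudogenes were not computed. They lay 18420 to 959952 bp from the nearest PHF2 peak.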

How the data were processed

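ChIP-seq lists of PHF2 and H3K9me2 from neural stem cells were analysed, 1 sample each. Per the file headers, MACS run in Galaxy gave the PHF2 list, and reads were aligned with Bowtie2 to mm10, per the submitters' processing notes. Not given in the sources used here: versions, control and the H3K9me2 caller. Each PHF2 peak of the deposited list has the authors' score, from 100.02 to 3226.07, and the score of the deposited H3K9me2 list is 0 throughout. Of 36171 regions, those on scaffolds were left out. Regions of the minimum length of 73 bp make up 55.6% of the list.

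Coordinates are 1-based. A gene was marked when a peak overlapped by 1 bp or more the 1000 bp on either side of a start of a protein-coding transcript (GENCODE M21, GRCm38). CpG observed/expected was pooled over the windows of a gene and cut into 10 classes of all genes. The number for genes of like CpG content is the sum of the class rates over the members. Scripts used Python 3.11.15, numpy 2.4.6, scipy 1.17.1 and pysam 0.24.0, and the overlap, CpG and class-rate steps were checked on simulated data. Wilson intervals cover counting error only.

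Members, lists and motifs were chosen with earlier results of these data known. All members could be named, with the 4 highest-scoring genes of each pathway list, genes of those lists with an H3K9me2 region and genes that share a peak with a member. Of the pathway lists, Gcn1 was not matched. Of 54 members, 42 were in the RefSeq promoter table. Sequences were taken from the top-scoring member of each of the 6 complexes with the highest scores. Eif4g2 was not in the table, and the stretches of Eif1b and Eif2s1 lie within annotated exons. The alternatives were other window sizes (500 bp, 2 kb, 5 kb), the 5′-most start, higher-scoring peaks, peak centres, longer regions, shared peaks left out and other CpG or GC classes. Starts of all transcripts, and CpG classes of the 5′-most window, were alternatives chosen after seeing the data.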

Additional observations from a re-analysis of the deposited data

How the results depend on the processing

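The 33 genes with a PHF2 peak became 17 with the higher-scoring 50% of peaks (14.8% of all genes) and 3 with the highest-scoring 10% (2.84%). The number was 33 with windows of 500 bp, 2 kb and 5 kb, with the 5′-most start alone, with starts of all transcripts and with peak centres. In that order, the share of all genes was 28.9%, 29.4%, 30.5%, 27.4%, 29.3% and 28.4%. It was 26 of the 54 members with those left out whose peak is shared. Of all genes with a peak, 24.5% had a shared one. The ratio of 1.19 to genes of like CpG content fell to 0.903 with the highest-scoring 10% of peaks, which is 3 genes, and rose to 1.77 when genes were classed by GC content in place of CpG. The cause was not tested. Over the other 12 alternatives it lay between 1.10 and 1.33. The 1 gene with an H3K9me2 region became 4 with windows of 5 kb, where the share of all genes rose to 12.2%, 0 with the 5′-most start alone (1.44% of all genes) and 0 with regions longer than the minimum (0.932%). No paired analysis was possible because each group has 1 sample. Without replicates or read depth, the precision of a single call is unknown.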
